A study of Mus musculus with 13 samples.

Results

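The 10 genes described here encode pro-inflammatory and regulatory cytokines (Tnf, Il1a, Il1b, Il6, Il10, Il18), the feedback inhibitors of NF-kB (Nfkbia, Tnfaip3) and the sensor and protease of the NLRP3 inflammasome (Nlrp3, Casp1). They were picked by symbol, and all 10 were found among the 27141 genes of the expression tables. Damaged hepatocytes (dHeps) came from wild-type mice whose livers had been injured over time by carbon tetrachloride (CCl4), and all were cultured in serum-free Hepatocyte Maintenance Medium until day 16. The cultures received DMSO as solvent, the 5C cocktail, or 5C lacking one compound: GSK429286A, which inhibits ROCK (5C-G), CID755673, which inhibits protein kinase D (5C-C), the AMPK activator ETC-1002 (5C-E), the adenylate cyclase activator forskolin (5C-F) or the plant glycoside Salidroside (5C-S). RNA was sequenced from 13 libraries in 7 groups, 2 for each group and 1 for 5C-S, with total counts between 30195867 and 45491932. The libraries of a group are called A and B, and the letters pair nothing across groups. The study's methods describe replicates as biological, but the labels do not give the age of these wild-type mice or tie libraries to animals or cultures, so p-values measure the spread between these libraries only. That spread was unequal: the chi-square between the 2 libraries of a group, per degree of freedom over genes with at least 20 counts in the pair, was 8.32 in DMSO, 14.8 in 5C, 31.2 in 5C-E, 67.7 in 5C-F, 81.7 in 5C-C and 93.8 in 5C-G, while the fit used one estimate per gene for all groups.

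NF-kB is held in the cytoplasm by inhibitory IkB proteins and enters the nucleus once the IKK complex, activated by cytokine or Toll-like receptors, marks IkB for degradation. Among its targets are inflammatory cytokine genes and its own inhibitors, Nfkbia (IkB-alpha) and Tnfaip3 (the ubiquitin-editing enzyme A20), which end the response. NLRP3 assembles with the adaptor ASC and caspase-1, and caspase-1 cleaves the precursors of IL-1beta and IL-18 into secreted cytokines. In the injured liver, Kupffer cells and recruited macrophages are the best-known sources of these cytokines, while hepatocytes respond to them.

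Sequence upstream of the start sites is shown for the feedback genes Nfkbia and Tnfaip3, and for Il6 and Nlrp3, which carried most of the differences between groups. The sequences are the 250 bases before the RefSeq start site (build GRCm38.p6), in the direction of transcription, and capitals mark every match to the NF-kB consensus decamer, the AP-1 site TGANTCA or the TATA box TATAAA, on either strand. For Tnfaip3 and Nlrp3, which have 2 start sites each, the more upstream site is printed.
Nfkbia chr12:55492648-55492897 (minus strand): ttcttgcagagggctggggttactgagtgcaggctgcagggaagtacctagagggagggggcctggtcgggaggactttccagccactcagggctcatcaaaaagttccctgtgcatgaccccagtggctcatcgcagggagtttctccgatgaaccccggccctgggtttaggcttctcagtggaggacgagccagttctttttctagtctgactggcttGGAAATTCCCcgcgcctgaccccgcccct
Tnfaip3 chr10:19015411-19015660 (minus strand): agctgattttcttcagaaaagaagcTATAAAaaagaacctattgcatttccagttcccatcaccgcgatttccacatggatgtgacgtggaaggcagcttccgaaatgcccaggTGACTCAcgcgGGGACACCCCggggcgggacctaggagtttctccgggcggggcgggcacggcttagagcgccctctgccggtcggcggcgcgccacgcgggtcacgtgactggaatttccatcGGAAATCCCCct
Il6 chr5:30012864-30013113 (plus strand): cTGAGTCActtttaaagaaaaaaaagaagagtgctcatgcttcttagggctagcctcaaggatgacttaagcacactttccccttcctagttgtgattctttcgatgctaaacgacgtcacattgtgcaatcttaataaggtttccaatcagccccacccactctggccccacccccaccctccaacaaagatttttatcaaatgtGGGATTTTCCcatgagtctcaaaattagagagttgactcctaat
Nlrp3 chr11:59541319-59541568 (plus strand): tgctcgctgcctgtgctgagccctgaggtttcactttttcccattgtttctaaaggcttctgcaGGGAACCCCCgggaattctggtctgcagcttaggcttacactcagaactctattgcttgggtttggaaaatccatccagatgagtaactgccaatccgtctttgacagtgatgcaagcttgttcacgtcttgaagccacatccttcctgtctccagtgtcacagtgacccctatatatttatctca
RefSeq start sites were found for 9 of the 10 genes, with Il10 unmatched. The NF-kB consensus was present in these 4 genes, against 7.25% of all 32851 upstream windows of the same length. In Nfkbia it lay 29 to 20 bases before the start, in Il6 44 to 35 bases, and in Nlrp3 186 to 177 bases. Tnfaip3 held a first match 125 to 116 bases and a second match 12 to 3 bases before its start. The AP-1 site was present in 3 of the genes (Il1a, Il6 and Tnfaip3), against 6.75% of windows, and TATAAA in 5 (Tnf, Il1a, Il1b, Il18 and Tnfaip3), against 12.4%. The cAMP response element TGACGTCA, held by 1.55% of windows, was found in 0 of the 9 genes. These matches describe letters only, and no binding was measured.

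Levels are given as FPKM, fragments per kilobase of gene scaled to the library total, which divides by gene length and can be compared between genes. Differences between groups are log2 fold changes with standard errors (SE) from edgeR's quasi-likelihood fit to the counts of all 13 libraries, with p-values adjusted by the Benjamini-Hochberg method over 19884 genes. A gene was called when its adjusted p was under 0.05 and its log2 fold change was beyond 1 in either direction. Comparisons with 5C share the same 5C libraries, and comparisons with DMSO share the same DMSO libraries.

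The 10 genes covered a wide range of levels. Nfkbia and Il18 were the most abundant, with medians over the 13 libraries of 34.6 and 25.5 FPKM, followed by Casp1 (6.64) and Tnfaip3 (3.50). Il10 (1.99), Il6 (0.541), Il1a (0.388), Nlrp3 (0.376) and Tnf (0.202) were low, and Il1b was at 0 in 12 of 13 libraries. Among small counts, between 1 and 20, 71.3% over all genes were even numbers, so low counts were not independent single fragments, and floors below cover counting error only.

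**Figure D1:**
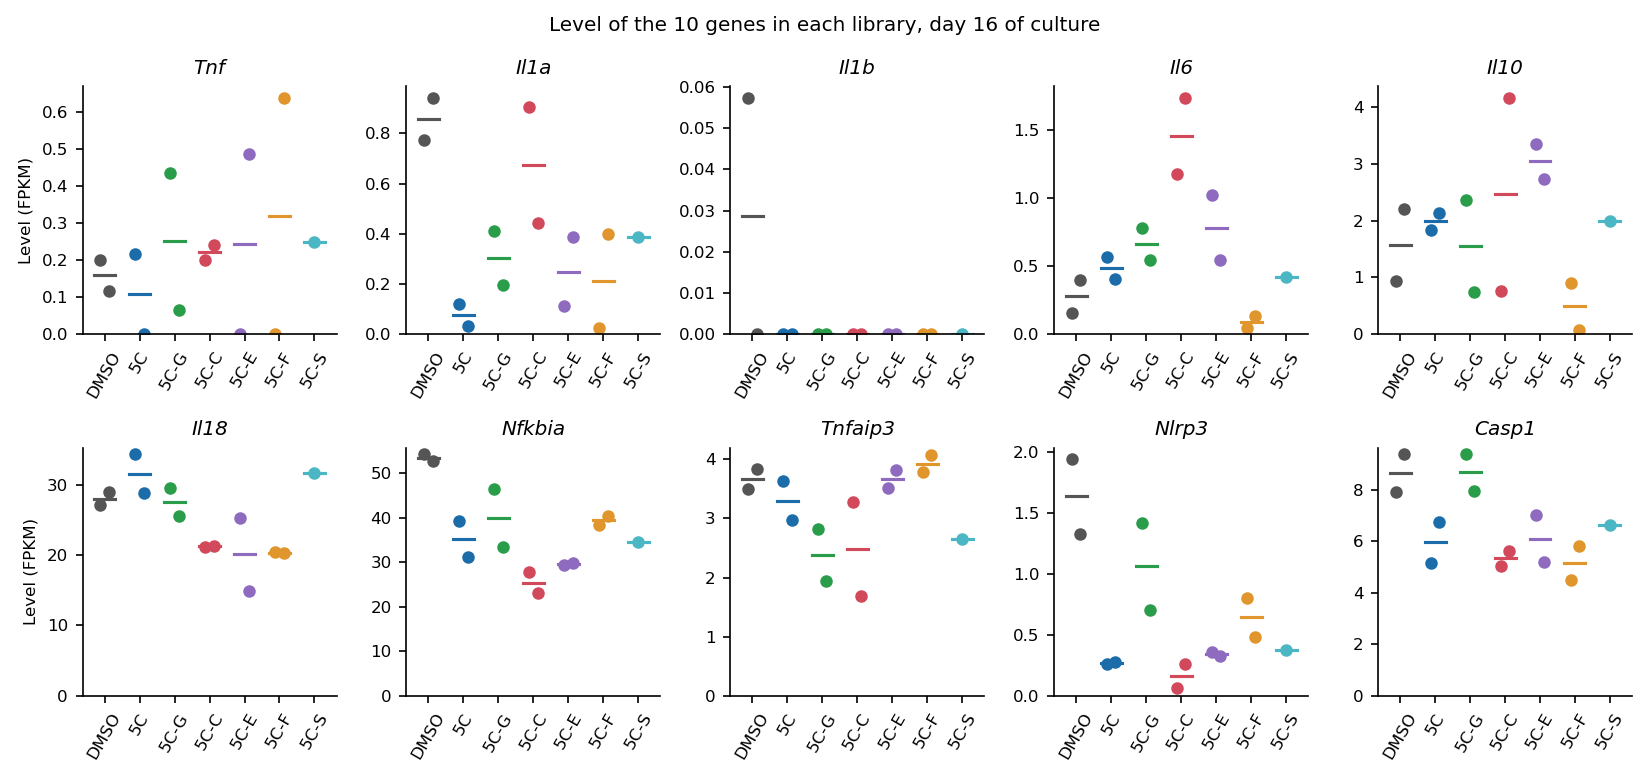
FPKM of each of the 10 genes in each library (points) by culture group, with the group mean (line). Each panel has its own axis from 0. Il6 is highest in both 5C-C libraries (1.17 and 1.73) and lowest in both 5C-F libraries (0.0425 and 0.137), and Nlrp3 is highest in DMSO and 5C-G.

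The markers in these cultures were not those of hepatocytes alone. Hepatocyte markers, 5 genes such as Alb and Ttr, summed to between 10352 and 11562 FPKM in DMSO, 10656 and 10688 in 5C, and 6357 and 7676 in 5C-G. The sums lay between 4520 and 4910 FPKM in 5C-C, 2977 and 3464 in 5C-E, and 16897 and 21269 in 5C-F, with 6925 in 5C-S. Their part in the differences between groups was not tested. Stellate cell and fibroblast markers (7 genes) summed to between 626 and 1188 FPKM, and cholangiocyte markers (5 genes) to between 1456 in 5C-S and 3422 in 5C-F. Macrophage markers (15 genes) summed to 5294 and 5361 FPKM in DMSO, 570 and 660 in 5C, and 5289 and 7424 in 5C-G. They summed to 1065 and 1756 FPKM in 5C-C, 775 and 911 in 5C-E, 1780 and 2118 in 5C-F and 674 in 5C-S. Endothelial cell markers (5 genes) summed to between 3.35 and 23.3 FPKM and dendritic cell markers (4 genes) to between 0.946 and 2.54. T and NK cell markers (4 genes) stayed at or under 0.122 FPKM in sum, B cell markers (3 genes) at or under 0.346 and neutrophil markers (7 genes) at or under 5.13. These 3 lists held 9, 4 and 8 genes, and the remaining genes were absent from the expression data. The neutrophil marker Ly6g was at or under 3 counts in every library. In bulk RNA, fewer cells of a type and less RNA per cell cannot be told apart.

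Il6, which drives the acute-phase response of hepatocytes, was lower without forskolin than in the other removals tested. Its level was 0.158 and 0.396 FPKM in DMSO, 0.564 and 0.402 in 5C, and 0.781 and 0.541 in 5C-G. It was 1.17 and 1.73 FPKM in 5C-C, 1.02 and 0.542 in 5C-E, 0.0425 and 0.137 in 5C-F, and 0.422 in 5C-S. Both 5C-C libraries lay above every other library, and both 5C-F libraries lay below every other. The counts behind these levels were 86 and 192 in 5C-C but only 4 and 14 in 5C-F.

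With CID755673 removed, Il6 rose against 5C by 1.76 ± 0.63 (SE) on the log2 scale (edgeR adjusted p = 0.0366) and against DMSO by 2.49 ± 0.65 (edgeR adjusted p = 0.00617). With forskolin removed, it fell against 5C, by 2.31 ± 0.69 on the log2 scale (edgeR adjusted p = 0.0413). Differences from DMSO of −1.58 ± 0.70 in 5C-F and 1.36 ± 0.64 in 5C-E did not pass (edgeR adjusted p of 0.147 and 0.28). Neither 5C-G nor 5C-E passed the test against 5C, with log2 fold changes of 0.57 ± 0.62 and 0.62 ± 0.62.

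Tested directly, Il6 was higher in 5C-C than in 5C-F by 4.07 ± 0.71 on the log2 scale (edgeR adjusted p = 0.000804), a contrast in which 10.2% of all genes were called in either direction. It was also higher in 5C-G than in 5C-F, by 2.88 ± 0.69 (edgeR adjusted p = 0.00936, 8.03% of all genes called), and in 5C-E than in 5C-F, by 2.93 ± 0.69 (edgeR adjusted p = 0.0075, 8.74% of all genes called). Between the other removals Il6 did not pass, with −1.19 ± 0.61 in 5C-G against 5C-C (edgeR adjusted p = 0.252, 7.36% of all genes called), 1.14 ± 0.61 in 5C-C against 5C-E (edgeR adjusted p = 0.187, 13.7% of all genes called) and −0.05 ± 0.61 in 5C-G against 5C-E (edgeR adjusted p = 0.979, 9.31% of all genes called). The call of Il6 in 5C-C against 5C-F was kept with each library left out in turn and with each other tool and scaling tried, although Il6 could not be tested when at least 10 counts were required in every library. The other calls of Il6 were less firm. Its call in 5C-G against 5C-F was lost without 5C-F A (adjusted p = 0.108), with only the 2 groups compared (0.0815) and with limma on log2(FPKM + 1) (0.0538). Its call in 5C-E against 5C-F was lost without 5C-E A (adjusted p = 0.0780) or 5C-F A (0.0802), and with that limma fit on fold (0.70). The fall in 5C-F against 5C missed the threshold without any one of the 4 libraries compared, with adjusted p between 0.0605 for 5C-F B left out and 0.195 for 5C A left out, and also with only the 2 groups compared (0.129), with the GC and length correction (0.0533) and with both limma fits (0.137 and 0.068). The rise in 5C-C against 5C missed it without 5C A, 5C B or 5C-C B (adjusted p of 0.102, 0.182 and 0.197) or with total counts only (0.0626), and the rise against DMSO without DMSO A (0.0853) or 5C-C B (0.0508). With limma on log2(FPKM + 1) both rises lay inside the fold threshold, at 0.72 and 0.94.

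Socs3, the feedback inhibitor induced by IL-6 receptor signalling, is given beside Il6. Its level was 12.01 and 11.4 FPKM in DMSO, 19.0 and 19.9 in 5C, 52.4 and 60.6 in 5C-C and 38.4 and 52.9 in 5C-E. It was 8.42 and 18.1 FPKM in 5C-F, 16.0 and 19.2 in 5C-G and 31.0 in 5C-S. Socs3 rose in 5C-C against 5C by 1.71 ± 0.27 (edgeR adjusted p = 0.000183) and in 5C-E against 5C by 1.16 ± 0.26 (edgeR adjusted p = 0.0224). The IL-6 receptor gene Il6ra fell in 5C-C against 5C by 1.17 ± 0.20 (edgeR adjusted p = 0.000271) and had a log2 fold change of −1.93 ± 0.20 against DMSO (edgeR adjusted p = 2.67e-06). Summed stellate cell and fibroblast markers were 790 and 794 FPKM in DMSO, 912 and 929 in 5C, 868 and 1024 in 5C-G, and 877 and 1045 in 5C-C. They were lowest in 5C-F, at 626 and 674 FPKM, as was Il6. They were highest in 5C-E, at 1098 and 1188 FPKM, and reached 1067 in 5C-S, and in both groups Il6 was below its level in 5C-C. The 7 genes did not move as one: in 5C-F against 5C only Col1a2 was called (−1.55), and in 5C-C against 5C Des rose (1.25) while Lrat (−1.85) and Reln (−4.60) fell. Their part in the Il6 result was not tested.

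Il1a, which encodes the membrane-associated alarmin IL-1alpha, was highest in DMSO and 5C-C. Its level was 0.775 and 0.943 FPKM in DMSO, 0.121 and 0.0330 in 5C and 0.904 and 0.444 in 5C-C. It was 0.409 and 0.194 FPKM in 5C-G, 0.111 and 0.388 in 5C-E, 0.0262 and 0.398 in 5C-F, and 0.386 in 5C-S. The DMSO and 5C-C libraries did not overlap with those of 5C, while the libraries of 5C-E and 5C-F were spread widely.

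The counts of Il1a were 8 and 2 in 5C, against 56 and 58 in DMSO and 54 and 40 in 5C-C. Il1a rose in 5C-C against 5C by 3.24 ± 1.11 on the log2 scale (edgeR adjusted p = 0.0298). The call was lost without 5C A (adjusted p = 0.0616), 5C B (0.182) or 5C-C A (0.104), and on fold with limma on log2(FPKM + 1) (0.62). In 5C against DMSO the log2 fold change was −3.52 ± 1.11, and the adjusted p of 0.0763 missed the threshold with edgeR, while DESeq2 gave 0.0186. The IL-1 receptor gene Il1r1, at 61.0 and 59.0 FPKM in DMSO and 51.7 and 50.4 in 5C, fell in 5C-F to 16.1 and 17.8 (log2 fold change against 5C −1.49 ± 0.19, edgeR adjusted p = 0.000309). Il1rn, which encodes the secreted IL-1 receptor antagonist, fell in 5C-G against 5C by 1.42 ± 0.31 (edgeR adjusted p = 0.00285). In 5C-F against DMSO, Il1rn rose by 1.90 ± 0.30 (edgeR adjusted p = 0.000542), and DESeq2 also called it in 5C-C against DMSO.

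Tnf and Il1b, the classical early macrophage cytokines, had low counts. Tnf ran from 0 to 0.639 FPKM and from 0 to 44 counts, and 3 libraries (5C B, 5C-E A and 5C-F A) were at 0. The highest Tnf value and a value of 0 were the 2 libraries of the same group, 5C-F. None of the comparisons called Tnf with edgeR, and its SE was 1.80 or more on the log2 scale in each. Il1b had 4 counts in DMSO A and 0 in every other library. It did not pass the filter on low counts, and a difference between groups was not detectable at this depth.

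Il10, the anti-inflammatory cytokine of macrophages and lymphocytes, was low and uneven within groups. Its level was 0.939 and 2.20 FPKM in DMSO, 1.84 and 2.14 in 5C, 2.37 and 0.752 in 5C-G and 0.757 and 4.17 in 5C-C. It was 3.35 and 2.74 FPKM in 5C-E, 0.907 and 0.0727 in 5C-F, and 1.99 in 5C-S. Both 5C-F libraries lay below both libraries of 5C, DMSO and 5C-E. Il10 was not called in any comparison with 5C or DMSO; in 5C-F against 5C its log2 fold change was −1.90 ± 0.87 (edgeR adjusted p = 0.175). Without 5C-F A, which had 46 counts against 4 in 5C-F B, this difference was −4.67 and was called (edgeR adjusted p = 0.0343), and it was also called with no filter on low counts (−1.90, edgeR adjusted p = 0.00787). In 5C-E against 5C-F it was 2.44 ± 0.87 (edgeR adjusted p = 0.0651), and in 5C-C against 5C-F 2.41 ± 0.87 (edgeR adjusted p = 0.0637). DESeq2 called Il10 in both of these contrasts, as did edgeR without 5C-F A (5.21 and 5.17, edgeR adjusted p of 0.0149 and 0.0171).

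Il10ra, which encodes a chain of the IL-10 receptor, is given beside Il10. It was at 9.11 and 7.63 FPKM in DMSO, 1.06 and 1.75 in 5C and 5.998 and 4.55 in 5C-G. It fell in 5C against DMSO by 2.64 ± 0.30 (edgeR adjusted p = 9.66e-06) and rose in 5C-G against 5C by 2.03 ± 0.29 (edgeR adjusted p = 0.000114). Il10ra is expressed mainly by leukocytes, and the summed macrophage markers were likewise lower in 5C than in DMSO and in 5C-G. Their part in this difference was not tested.

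Il18, which is made as a precursor also by hepatocytes and other epithelia, was at a high level throughout. It was 27.1 and 28.9 FPKM in DMSO, 34.3 and 28.8 in 5C, 29.5 and 25.5 in 5C-G, and 31.7 in 5C-S. It was 21.2 and 21.3 FPKM in 5C-C, 25.3 and 14.9 in 5C-E, and 20.4 and 20.2 in 5C-F. Libraries lacking CID755673, ETC-1002 or forskolin thus lay below the other 7 libraries. Even so, Il18 was called in no comparison with 5C or DMSO, and its log2 fold changes against 5C were −0.40 ± 0.22 for 5C-C, −0.72 ± 0.22 for 5C-E and −0.53 ± 0.22 for 5C-F (edgeR adjusted p of 0.176, 0.109 and 0.136). Without library 5C-E A, Il18 was called lower in 5C-E against 5C, at −1.12. The genes of the IL-18 receptor, Il18r1 and Il18rap, fell in 5C-F against DMSO by 2.22 ± 0.22 and by 2.40 ± 0.25 (edgeR adjusted p of 8.55e-06 and 1.23e-05), and against 5C by 1.27 ± 0.22 and by 1.05 ± 0.24 (edgeR adjusted p of 0.00211 and 0.0126). Against DMSO, Il18rap was also called lower in 5C (−1.35 ± 0.24, edgeR adjusted p = 0.0012) and in 5C-G (−1.05 ± 0.24, edgeR adjusted p = 0.0104). DESeq2 also called it in 5C-C against DMSO. In other removals Il18r1 rose against 5C, by 1.07 ± 0.21 in 5C-G and by 1.00 ± 0.21 in 5C-C (edgeR adjusted p of 0.00164 and 0.00155).

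Nfkbia, the most abundant of the 10 genes, was highest in DMSO. Its level was 54.3 and 52.8 FPKM in DMSO, 39.3 and 31.2 in 5C, 46.6 and 33.4 in 5C-G, and 38.5 and 40.4 in 5C-F. It was 27.8 and 23.1 FPKM in 5C-C, 29.3 and 29.8 in 5C-E and 34.6 in 5C-S. Both DMSO libraries lay above all 11 others, and the 4 libraries of 5C-C and 5C-E lay below all others.

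Nfkbia fell in 5C-E against DMSO by 1.00 ± 0.18 on the log2 scale (edgeR adjusted p = 0.00108), just past the fold threshold. In 5C-C against DMSO the log2 fold change of −0.99 ± 0.18 passed on p (edgeR adjusted p = 0.000413) but lay just inside that threshold, so these 2 groups are not distinguished by their calls. With GC content and length corrected for, the 5C-C difference was −1.51 and was called. The call in 5C-E was lost without DMSO A (−0.94) or 5C-E A (−0.95), and under 8 other settings, DESeq2 (−0.997) and both limma fits (−0.83 and −0.85) included, each time on fold and not on p. In 5C against DMSO, the log2 fold change was −0.68 ± 0.18 (edgeR adjusted p = 0.0266), short of the fold threshold. Differences from DMSO of −0.37 ± 0.18 in 5C-G and −0.42 ± 0.18 in 5C-F did not pass (edgeR adjusted p of 0.17 and 0.13). In 5C-E against DMSO, 13 of 15 macrophage markers and 4 of 5 hepatocyte markers were also called. Their part in the Nfkbia result was not tested.

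Between removals, the adjusted p for Nfkbia passed while the fold stayed under the threshold. It was higher in 5C-G than in 5C-C by 0.61 ± 0.18 (edgeR adjusted p = 0.0316) and than in 5C-E by 0.63 ± 0.18 (edgeR adjusted p = 0.0205, with 9.31% of all genes called). It was lower than in 5C-F by 0.57 ± 0.18 in 5C-C and 0.58 ± 0.18 in 5C-E (edgeR adjusted p of 0.0329 and 0.0317).

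Tnfaip3 did not follow Nfkbia. Its level was 3.50 and 3.84 FPKM in DMSO, 3.63 and 2.97 in 5C, 3.51 and 3.81 in 5C-E, and 3.78 and 4.08 in 5C-F. It was 2.83 and 1.95 FPKM in 5C-G, 3.28 and 1.69 in 5C-C, and 2.66 in 5C-S. Both 5C-G libraries, 5C-C B and 5C-S lay below all libraries of DMSO, 5C, 5C-E and 5C-F. Tnfaip3 was called in no comparison. Its difference furthest from 0 was −0.58 ± 0.25 among comparisons with DMSO or 5C, in 5C-G against DMSO (edgeR adjusted p = 0.137), and −0.70 ± 0.25 among removals, in 5C-G against 5C-F (edgeR adjusted p = 0.0854). In 5C-C against 5C-F it was −0.61 ± 0.25 (edgeR adjusted p = 0.103), and without 5C-C A it was −1.11 and called (edgeR adjusted p = 0.00528).

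Nlrp3, the inflammasome sensor, was called in 4 of the 9 comparisons with 5C or DMSO, more than any other member. Its level was 1.94 and 1.33 FPKM in DMSO, 0.257 and 0.273 in 5C, and 1.42 and 0.702 in 5C-G. It was 0.0652 and 0.260 FPKM in 5C-C, 0.359 and 0.325 in 5C-E, 0.802 and 0.481 in 5C-F, and 0.376 in 5C-S. Libraries of DMSO and of 5C-G overlapped, and both lay above those of 5C, 5C-C, 5C-E and 5C-S. The counts of Nlrp3 were 8 and 48 in 5C-C and 35 and 34 in 5C, against 288 and 168 in DMSO.

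Nlrp3 fell in 5C against DMSO by 2.70 ± 0.56 on the log2 scale (edgeR adjusted p = 0.00521). With GSK429286A removed it rose against 5C by 2.10 ± 0.55 (edgeR adjusted p = 0.0101), and its difference from DMSO was −0.59 ± 0.52 (edgeR adjusted p = 0.487). It fell against DMSO in 5C-C by 3.18 ± 0.57 (edgeR adjusted p = 0.000413) and in 5C-E by 2.40 ± 0.55 (edgeR adjusted p = 0.00848). In 5C-F it was between these levels, at 1.38 ± 0.55 against 5C and −1.32 ± 0.52 against DMSO, and neither passed (edgeR adjusted p of 0.115 and 0.107).

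Removals were also compared directly, other than that of Salidroside, which had 1 library. Nlrp3 was higher in 5C-G than in 5C-C by 2.58 ± 0.57 (edgeR adjusted p = 0.00556) and than in 5C-E by 1.81 ± 0.54 (edgeR adjusted p = 0.0272). The difference between 5C-G and 5C-F was 0.72 ± 0.52 (edgeR adjusted p = 0.435). Between 5C-C and 5C-F it was −1.86 ± 0.56 (edgeR adjusted p = 0.0275). These 3 calls did not hold throughout: the first was lost without 5C-G A (adjusted p = 0.0514) or with only the 2 groups compared (0.0643), the second without 5C-G A, 5C-E A or 5C-E B (0.134, 0.155 and 0.14) or with limma on log2(FPKM + 0.1) (0.0827), and the third without 5C-C A or 5C-F A (0.132 and 0.217) or with only the 2 groups compared (0.136) or that limma fit (0.0515). The fall in 5C-C against DMSO was kept without each library in turn. The fall in 5C against DMSO missed the threshold without DMSO A, 5C A or 5C B (adjusted p of 0.0733, 0.0788 and 0.0648), and the rise in 5C-G against 5C without 5C A, 5C B or 5C-G A (0.0824, 0.0694 and 0.0608). The fall in 5C-E against DMSO missed it without DMSO A, 5C-E A or 5C-E B (0.113, 0.0797 and 0.104). Of the 7 calls, limma on log2(FPKM + 1) kept those in 5C and in 5C-C against DMSO.

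Macrophage markers are given for the 9 comparisons with 5C or DMSO. They were called in the 4 of these that called Nlrp3, and also in others. Of the 15 macrophage genes, 12 fell in 5C against DMSO and 12 rose in 5C-G against 5C, and 13 fell in each of 5C-C and 5C-E against DMSO. In 5C-F, 9 rose against 5C and 11 fell against DMSO, and in 5C-C against 5C, 5 rose (Cd68, Marco, C1qa, C1qb and C1qc) and 2 fell (Ptprc and Cx3cr1), while Nlrp3 was not called in these 3 contrasts, with −0.48 ± 0.57 in 5C-C against 5C (edgeR adjusted p = 0.55). The ratio of Nlrp3 to the macrophage marker Adgre1, both in FPKM, was 0.0241 and 0.0178 in DMSO, 0.0223 and 0.0217 in 5C, and 0.0252 and 0.0132 in 5C-G. It was 0.00646 and 0.0315 in 5C-C, 0.0247 and 0.0225 in 5C-E, 0.0349 and 0.0210 in 5C-F, and 0.0415 in 5C-S. The ranges of DMSO, 5C-G, 5C-C and 5C-F included both 5C values, while 5C-E lay just above them and 5C-S above every other library. Set against all 15 macrophage markers, Nlrp3 per 1000 FPKM of their sum was 0.451 and 0.413 FPKM in 5C, against 0.366 and 0.248 in DMSO, 0.268 and 0.0945 in 5C-G and 0.0612 and 0.148 in 5C-C. It was 0.463 and 0.356 in 5C-E, 0.451 and 0.227 in 5C-F, and 0.557 in 5C-S. On this ratio the DMSO, 5C-G and 5C-C libraries all lay below both 5C libraries, unlike on the ratio to Adgre1. The part of the macrophage markers in the Nlrp3 result was not tested.

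**Figure D2:**
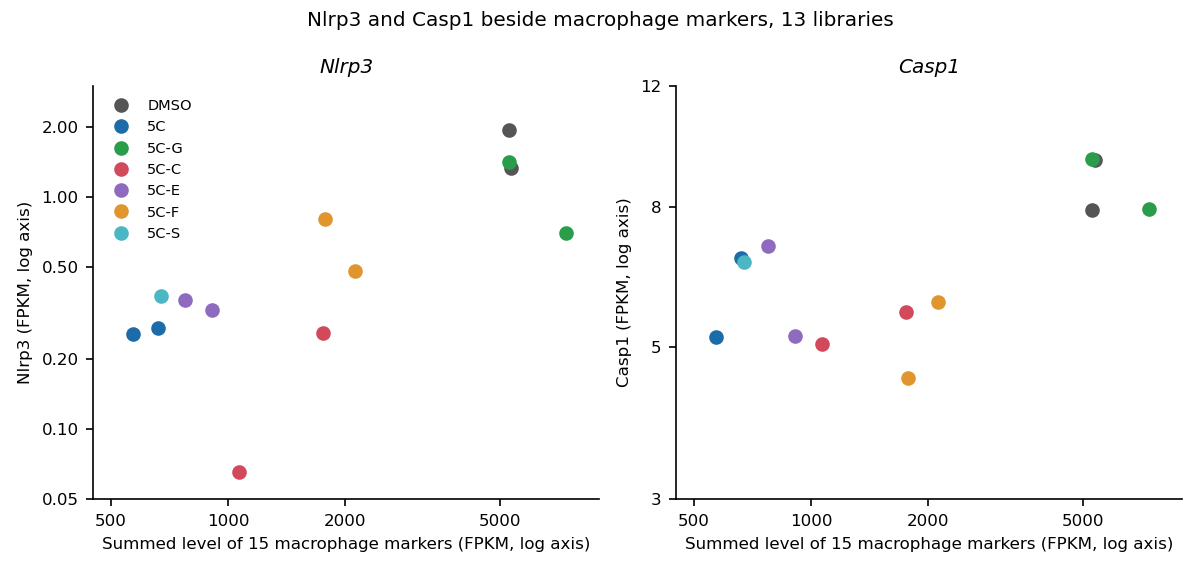
Nlrp3 (left) and Casp1 (right) in FPKM against the summed FPKM of 15 macrophage markers in each of 13 libraries, coloured by group, all axes logarithmic. DMSO and 5C-G libraries lie at the right, at sums of 5289 FPKM or more, and 5C-C A, with an Nlrp3 level of 0.0652 FPKM, lies lowest in the left panel.

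Casp1, the protease of the inflammasome, was likewise highest in DMSO and 5C-G, over a narrower range. Its level was 7.90 and 9.36 FPKM in DMSO, 5.17 and 6.74 in 5C, 9.39 and 7.95 in 5C-G, and 5.05 and 5.62 in 5C-C. It was 7.01 and 5.19 FPKM in 5C-E, 4.50 and 5.82 in 5C-F, and 6.64 in 5C-S. The DMSO and 5C-G libraries lay above all others. Casp1 was called in no comparison, and its log2 fold changes were all within 1 of 0. On p alone it passed in 5C-G against 5C (0.67 ± 0.23, edgeR adjusted p = 0.0375), in 5C-C against DMSO (−0.60 ± 0.23, edgeR adjusted p = 0.0458) and in 5C-F against DMSO (−0.72 ± 0.23, edgeR adjusted p = 0.0414). It also passed on p in 5C-G against 5C-E (0.71 ± 0.23, edgeR adjusted p = 0.0366) and against 5C-F (0.78 ± 0.23, edgeR adjusted p = 0.0298). In 5C and in 5C-E against DMSO it was −0.61 ± 0.23 and −0.65 ± 0.23 (edgeR adjusted p of 0.146 and 0.101).

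**Figure D3:**
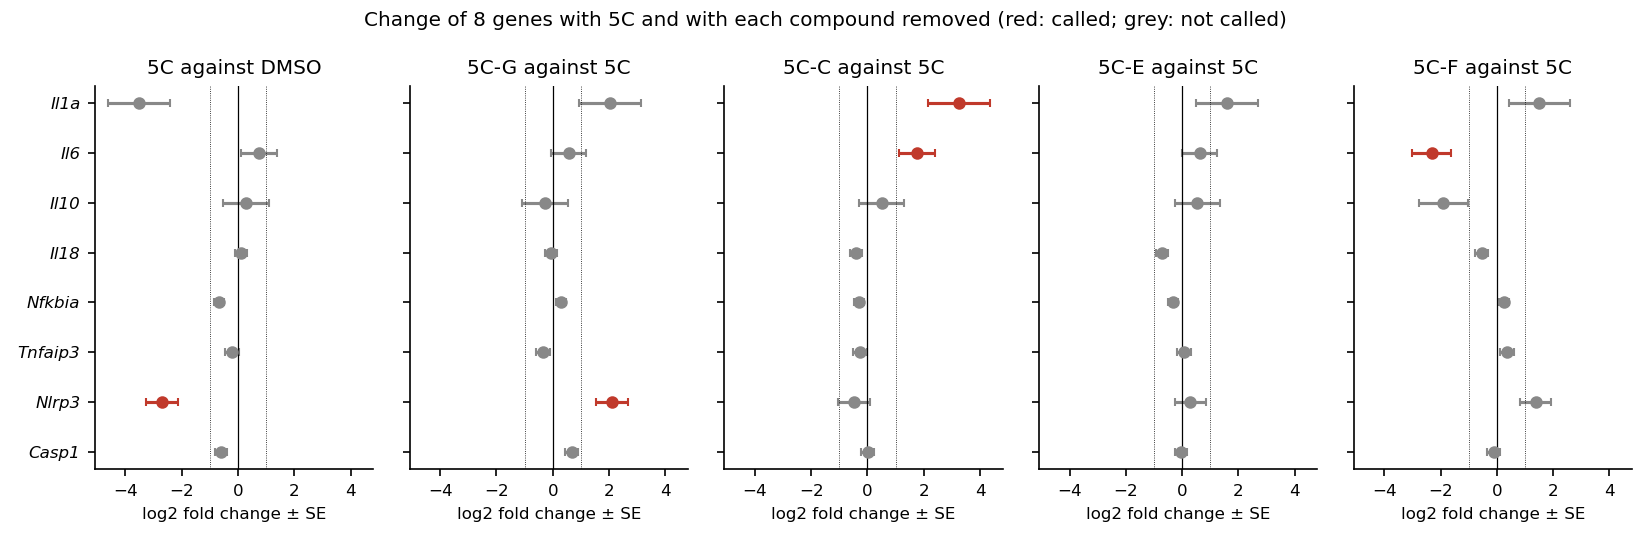
Log2 fold change with SE (bars) of 8 genes in 5C against DMSO and in 4 removals against 5C, from the fit to all 13 libraries. Red points were called and grey points were not; dotted lines mark a log2 fold change of 1 in either direction. Nlrp3 moves down with 5C (−2.70) and up with 5C-G (2.10), and Il6 moves up in 5C-C (1.76) and down in 5C-F (−2.31).

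Counted over the members, 9 of the 10 genes could be tested. In 5C against DMSO, 0 were called higher and 1 lower, where 1.66% and 2.89% of all genes were. Against 5C, the calls were 1 higher and 0 lower in 5C-G (all genes 7.47% and 5.64%), and 2 higher and 0 lower in 5C-C (9.65% and 10.5%). They were 0 and 0 in 5C-E (0.654% and 1.31%), and 0 higher and 1 lower in 5C-F (2.69% and 2.15%). Against DMSO, 5C-G had 0 and 0 (3.11% and 2.72%), 5C-C had 1 higher and 1 lower (10.4% and 11.7%), 5C-E had 0 higher and 2 lower (2.41% and 3.68%), and 5C-F had 0 and 0 (3.18% and 4.22%). These calls are edgeR's. In the 3 comparisons with 0 calls, an unadjusted p under 0.05 with the same fold gave 2 members in 5C-F against DMSO (Il6 and Nlrp3) and 0 in the other two, and DESeq2 gave 0 in each. With so few members, counts of 0 to 2 are not read against these shares, and the results above rest on single genes.

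The single 5C-S library was close to 5C for most members. Fitted log2 differences from 5C were −0.02 for Il10, −0.01 for Il18, −0.04 for Nfkbia, 0.14 for Casp1, −0.21 for Il6 and −0.33 for Tnfaip3. They were 0.49 for Nlrp3, 1.17 for Tnf and 2.28 for Il1a, the latter 2 on counts of 14 and 26. With 1 library there is no test, and 8.3% of all genes were more than 2-fold higher and 10.6% more than 2-fold lower than in 5C.

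The rest of the pathway was described in 7 lists of NF-kB subunits, regulators, receptors and targets, with 76 genes tested. In 5C against DMSO, 0 of the 76 were called higher and 7 (9.21%) lower, where 1.66% and 2.89% of all genes were. None of the 5 NF-kB subunits, 7 IKK and IkB genes or 9 other negative regulators were called with edgeR. The count was also 0 in each with p under 0.05 before adjustment and the same fold, and with DESeq2. Of 13 cytokine receptors 3 fell, as did 2 of 18 Toll-like receptor and adaptor genes, 1 of 10 inflammasome partners and 1 of 14 other NF-kB targets. Lowest among those called were Il10ra (−2.64 ± 0.30), the endosomal RNA sensor Tlr7 (−2.55 ± 0.21) and Bcl2a1a, a survival gene of leukocytes (−2.44 ± 0.41). Median log2 fold changes of the lists lay between −0.39 and 0.02, against 0.01 over all genes tested. The 12 macrophage markers that fell in this contrast are given beside Nlrp3, and their part was not tested.

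With GSK429286A removed, 8 of the 76 genes (10.5%) rose against 5C and 2 (2.63%) fell, where 7.47% and 5.64% of all genes did. Those that rose were 3 cytokine receptors, 2 Toll-like receptors (Tlr2 and Tlr7), 2 inflammasome partners and 1 other target. Pycard, which encodes the inflammasome adaptor ASC, rose by 1.56 ± 0.28 (edgeR adjusted p = 0.000893), and P2rx7, the ATP-gated channel that triggers NLRP3, rose by 1.55 ± 0.26 (edgeR adjusted p = 0.000483). Bcl2a1a rose by 3.02 ± 0.41 (edgeR adjusted p = 7.37e-05), while the neutrophil chemokine gene Cxcl1 fell by 1.41 ± 0.28 (edgeR adjusted p = 0.00154). The 12 macrophage markers given beside Nlrp3 rose in the same contrast, and their part was not tested.

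With CID755673 removed, 7 of the 76 genes (9.21%) rose against 5C and 7 (9.21%) fell, close to the 9.65% and 10.5% of all genes. Among NF-kB subunits, Nfkb2 rose by 1.07 ± 0.20 (edgeR adjusted p = 0.000591) and Rel fell by 1.27 ± 0.32 (edgeR adjusted p = 0.00538). Of 7 IKK and IkB genes, 2 rose, Bcl3 (1.23 ± 0.23) and Nfkbib (1.26 ± 0.24), and the IKK-alpha gene Chuk, named after its value was seen, fell (−1.20 ± 0.22). The lipopolysaccharide co-receptor Cd14 rose by 1.71 ± 0.21 (edgeR adjusted p = 3.85e-05), with 172 and 154 FPKM against 59.1 and 52.8 in 5C, while Tlr4 fell by 1.33 ± 0.23 (edgeR adjusted p = 0.000406). None of the 14 other NF-kB targets were called with edgeR, nor with p under 0.05 before adjustment and the same fold or with DESeq2 (0 in each). Among the removals against 5C, this one also had the highest shares of all genes called.

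With forskolin removed, 5 of the 76 genes (6.58%) rose against 5C and 4 (5.26%) fell, where 2.69% and 2.15% of all genes did. In the same contrast 9 of 15 macrophage markers rose, and their part was not tested. Ccl2, the monocyte chemokine gene, named after its value was seen, rose against 5C by 1.25 ± 0.26 (edgeR adjusted p = 0.00767) and was at 77.2 and 93.4 FPKM against 44.9 and 31.9. Ptgs2, which encodes cyclooxygenase-2, fell by 1.57 ± 0.30 (edgeR adjusted p = 0.00431), and Bcl2a1a rose by 1.60 ± 0.40 (edgeR adjusted p = 0.0192). Cxcl1 rose against DMSO, by 1.36 ± 0.27 (edgeR adjusted p = 0.00301). Il6, itself an NF-kB target, fell in this group while Ccl2 rose. With ETC-1002 removed, Socs3 was the only gene of the 7 lists called against 5C, with edgeR, with p under 0.05 before adjustment and the same fold, and with DESeq2.

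Against DMSO, 6 of the 76 genes (7.89%) rose and 20 (26.3%) fell in 5C-C, where 10.4% and 11.7% of all genes did. In 5C-E, 1 (1.32%) rose and 11 (14.5%) fell, where 2.41% and 3.68% of all genes did. In 5C-F, 5 (6.58%) rose and 10 (13.2%) fell, where 3.18% and 4.22% did, and in 5C-G 0 rose and 1 (1.32%) fell, where 3.11% and 2.72% did. Of the 15 macrophage markers, 13, 13, 11 and 1 fell in these contrasts in the same order, and their part was not tested.

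**Figure D4:**
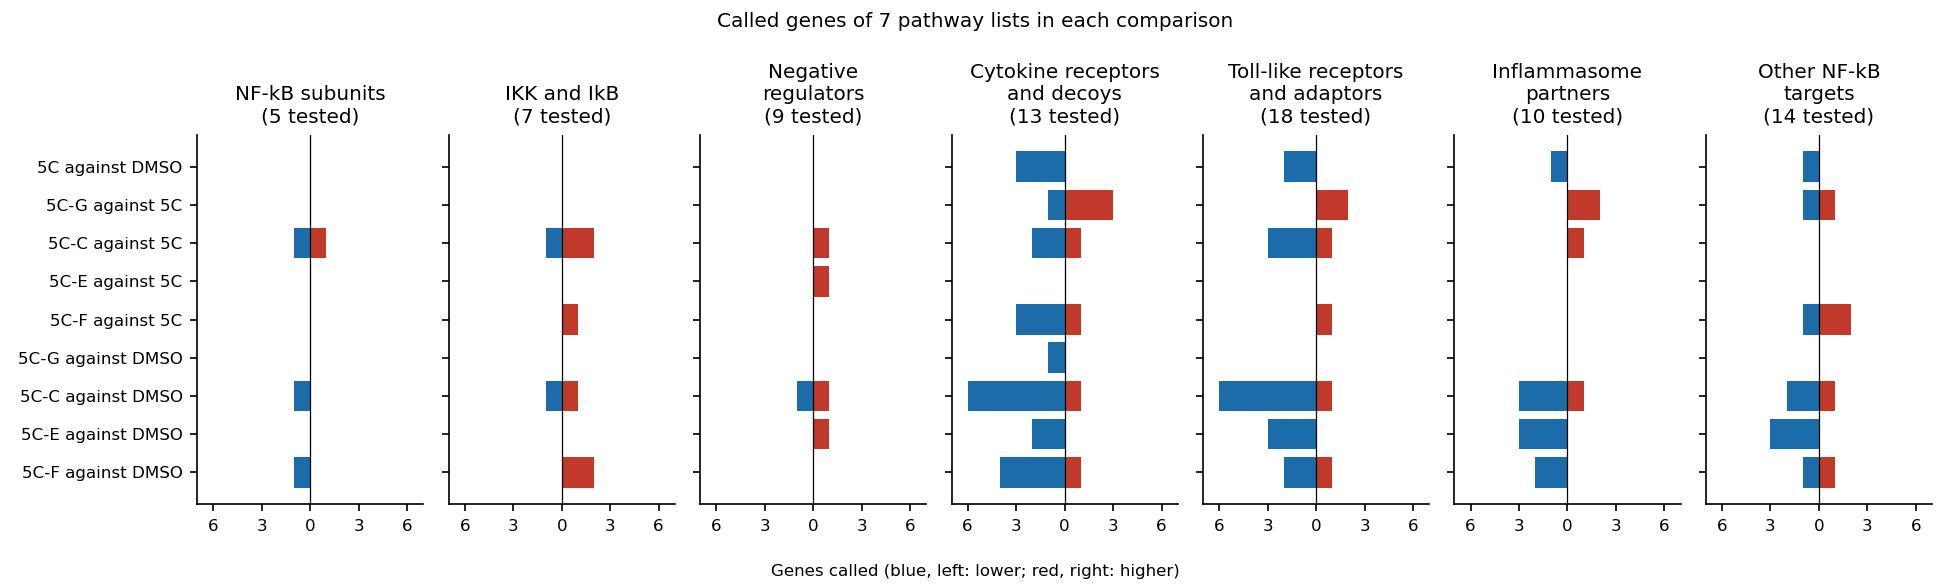
Number of genes called higher (red, right) and lower (blue, left) in 7 pathway lists, for 9 comparisons (rows), with the number of genes tested in each panel title. The longest bars are the 6 cytokine receptors and the 6 Toll-like receptor genes and adaptors lower in 5C-C against DMSO, where 11.7% of all genes were lower.

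For each tested member, the genes most like it were found by Pearson's r of log2 CPM over the 13 libraries, among 13977 genes. These values are a description, since all genes share the same libraries. Nfkbia was nearest to Dusp1, a MAP kinase phosphatase gene (r = 0.951), and Tsc22d3, the glucocorticoid-induced leucine zipper gene (0.949). Tnfaip3 was nearest to Cgnl1 (0.932), Pik3ap1 (0.927) and Bcl6 (0.921), and shared none of its nearest genes with Nfkbia. Nlrp3 was nearest to Arhgap15 (0.960), Rasgrp3 (0.947) and Pkib (0.943), and Casp1 to Tmem8 (0.886), Samhd1 (0.883) and Syk (0.881). Il18 was nearest to Lrrc4 (0.862). Il6 was nearest to the hyaluronan synthase gene Has1 (0.932), which left its nearest 3 with a prior count of 0.5, where Cldn15 came first (0.924). Il1a was nearest to Cpxm2 (0.890), Il10 to Ror2 (0.855) and Tnf to E030030I06Rik (0.812). Il6, Il1a, Il10 and Tnf had few counts in some libraries.

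Several members overlap other genes on the opposite strand in the GENCODE annotation of GRCm39. Il18 (chromosome 9, 50466081 to 50493633) overlaps the protein-coding genes Bco2 and Tex12, and Casp1, Il1a, Il1b, Il6, Nfkbia and Tnfaip3 overlap lncRNA genes. How strand was handled in counting is not given in the sources used here, so reads of these pairs cannot be told apart. Il10, Nlrp3 and Tnf overlap no annotated gene.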

How the data were processed

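RNA-seq libraries of 13 dHep cultures in 7 groups were used, with groups taken from the sample labels. The authors sequenced paired-end reads and deposited raw counts per gene and FPKM per gene. The submitters' processing notes name featureCounts, Subread, DESeq2 and the build GRCm39, without versions or strand setting. Deposited counts were not normalized, and the authors' FPKM divide them by gene length and column total. Columns not used numbered 0. Counts were fitted with edgeR 4.0.16 (R 4.3.3): TMM factors, filterByExpr with a minimum count of 10, quasi-likelihood test, 6 residual degrees of freedom, common biological coefficient of variation 0.261. The study's methods use DESeq, which served here as an alternative (DESeq2 1.42.0), with limma 3.58.1 on log2(FPKM + 1) and log2(FPKM + 0.1). The test was checked on simulated data, but the settings and outcome are not given here and no result rests on that check. The members and lists were chosen with earlier results of these data known. All members were named. From each list, the called genes with the 2 largest changes in a comparison could be named, and genes on which a result turns. The 3 genes most like each member were ranked by r of log2 CPM with a prior count of 2; the report names at least the nearest, and 1 gene is not reported here. A floor of 3 counts was used.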

Additional observations from a re-analysis of the deposited data

How the results depend on the processing

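For the 52 tested log2 fold changes of single members given in the report, 750 recomputations under other settings gave 3 reversals of sign, none of a called value: Nlrp3 in 5C-C against 5C without 5C-C A (0.18; leave-one-out range −1.87 to 0.18), and Il6 in 5C-G against 5C-E without 5C-G B (0.11) or 5C-E A (0.39; range −0.43 to 0.39). Of the rest, 644 kept the call or its absence, 60 lost a call and 43 gained one. Counts of called members were less stable. In 5C against DMSO the count of 1 became 2 with p under 0.05 unadjusted, with a log2 fold change beyond 0.5, with no filter on low counts, with only the 2 groups compared and with DESeq2. In 5C-G against 5C the count of 1 became 2 with the lower fold and 0 with limma on log2(FPKM + 1). In 5C-C against 5C the count of 2 became 1 with total counts only and 0 with limma on log2(FPKM + 1). In 5C-F against 5C the count of 1 became 3 with unadjusted p, 2 with no filter, and 0 with GC content and length corrected for, with only the 2 groups compared and with both limma fits. In 5C-C against DMSO the count of 2 became 4 with the lower fold and 3 with total counts only, with GC content and length corrected for and with limma on log2(FPKM + 0.1), and it stayed at 2 with limma on log2(FPKM + 1), which lost Il6 and gained Nfkbia. In 5C-E against DMSO the count of 2 became 3 with unadjusted p, 1 with total counts only, with no filter, without the 5C-S library, with only the 2 groups compared, with limma on log2(FPKM + 0.1) and with DESeq2, and 0 with limma on log2(FPKM + 1). In 5C-F against DMSO the count of 0 became 2 with unadjusted p and 1 with the lower fold, with no filter and with only the 2 groups compared. Requiring at least 10 counts in every library left Tnf, Il1a, Il6, Il10, Il1b and Nlrp3 untested and gave 0 calls in 5C, 5C-C and 5C-E against DMSO and in 5C-G, 5C-C and 5C-F against 5C. With 1 library left out, counts ran from 0 to 1 in 5C against DMSO and in all 4 removals against 5C, from 1 to 3 in 5C-C against DMSO, from 0 to 2 in 5C-E against DMSO and from 0 to 1 in 5C-F against DMSO. The lone library left in such a group is assumed to vary like the others. Leaving a library out also lowers the residual degrees of freedom by 1; what else moved the calls was not tested. The log2 fold changes of all genes correlated with GC content (Spearman's rho of 0.354 in 5C-G and 0.416 in 5C-C against 5C). No paired analysis was possible because the labels number the DMSO and 5C libraries differently and give the removal groups no replicate numbers. Depth limits Tnf, Il1a, Il1b and the 5C-F values of Il6. It also limits Il10 in 5C-F B (4 counts) and Nlrp3 in 5C-C A (8 counts).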
